A study of Vitis vinifera with 36 samples.

Results

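The step from veraison to intermediate ripening was followed in Cabernet Sauvignon (Vitis vinifera) berries that had been sprayed with abscisic acid (ABA). The ABA-treated E-L 36 berries were compared with the ABA-treated E-L 35 berries, 3 libraries against 3, which are 6 of the 36 RNA-seq libraries of the series. E-L numbers are a scale of grapevine development, on which E-L 35 is the onset of veraison, E-L 36 is intermediate ripening and E-L 38 is harvest. Both groups carried the same treatment, 1000 mg/L ABA with 0.05% Tween 20. It was sprayed on the bunches at E-L 33 in 2015 and applied again later on the same day. The comparison is therefore one of stage within treated berries and holds no untreated berries. Stages follow each other in the season, so that stage and date of sampling cannot be told apart. The same step was also measured in berries sprayed with 0.05% Tween 20 alone (control) and in berries sprayed with 100 mg/L 1-naphthaleneacetic acid (NAA), a synthetic auxin, with 3 libraries at each stage. Each replicate was a field plot of 50 vines, from which 500 berries were collected, and RNA came from the deseeded pericarp, skin and flesh together, of a subsample of 50 berries. The groups are therefore plots in 1 vineyard and 1 season, and p-values measure the spread between such plots. The paper describes 3 plots per treatment in a randomized block design, with berries sampled at successive stages. Both stages may therefore come from the same plots. Columns could not be matched to plots, so the libraries were tested as unpaired.

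At veraison the grape berry stops firm green growth, softens, takes up sugar and water, loses chlorophyll and malate, and in red cultivars fills the skin vacuoles with anthocyanins. ABA rises around this point and is regarded as a promoter of ripening in this non-climacteric fruit, whereas auxins delay it. ABA itself is cut from carotenoids by 9-cis-epoxycarotenoid dioxygenases (NCED), so that carotenoid genes stand upstream of both the hormone and the norisoprenoid aroma compounds.

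The 6 libraries differed little in sampling depth, with a relative depth of 0.979 to 1.004 over the 6, as worked out from the steps between low values. Values are FPKM, fragments normalised to transcript length and to library size, and genes with at least 1 FPKM numbered 14385 to 14544 in ABA E-L 36 libraries and 14843 to 14990 in ABA E-L 35 libraries. Of the 6 libraries, 1 stood apart. The 12 markers of seed storage tissue (legumin, vicilin, albumin and oleosin genes) summed to 188.8, 279.9 and 223.6 FPKM in ABA E-L 36 libraries, against 149.6, 2526 and 138.9 FPKM in ABA E-L 35 libraries, where replicate 2 carried the high sum. Of these 12 genes, 11 were highest in that library. The number of them at 0 was 2, 0 and 0 in ABA E-L 36 libraries, against 1, 0 and 1 in ABA E-L 35 libraries. ABA E-L 35 replicate 2 is called the library with seed RNA below, although other libraries also carried these markers. In control berries the 12 markers summed to 119.6, 598.7 and 167.4 FPKM at E-L 36, against 103.9, 101.7 and 376.8 FPKM at E-L 35. The control step and its difference from the ABA step thus also used libraries that were uneven in these markers. The berries had been deseeded, and the part of seed RNA in the results was not tested beyond leaving ABA E-L 35 replicate 2 out. That removal is given below for some of the groups. It is not given for the 12 markers or for the lipid transfer, cutin and wax genes. In whole pericarp, fewer cells of a type and less RNA per cell cannot be told apart.

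Between E-L 35 and E-L 36, ABA-treated berries lost transcripts of the photosynthetic apparatus, of acid invertases, of galactinol synthases and of several aquaporins, and gained those of an auxin synthesis gene, of storage-type globulins and glutelins, and of proline-rich early nodulin-like proteins. A gene is said to have risen or fallen where the adjusted p was at most 0.01 (limma, Benjamini-Hochberg over all genes tested) and the change was at least 1 on the log2(FPKM + 1) scale. By this rule 643 of 17598 genes (3.65%) changed, of which 142 (0.807%) rose and 501 (2.85%) fell. All 643 had libraries that did not overlap between the stages, as did 9.81% of all genes in the higher and 38.4% in the lower direction. The calls came from the same 6 libraries, so that this is no further evidence. Without a limit on size, 5771 of the 17598 genes passed an adjusted p of 0.05, with 932 higher and 4839 lower at E-L 36. At least as many passed an unadjusted p of 0.05. Counts of list members at that limit, given below, are to be read beside this share. The size of the excess of falls depended on the scale. From FPKM alone, an effect of the scale and a general fall of transcripts cannot be told apart. The median change of all genes was -0.15, and the 10 most abundant genes took 25.2 to 26.3% of all FPKM in ABA E-L 36 libraries and 17.7 to 18.8% in ABA E-L 35 libraries. When the libraries were rescaled so that the median change was near 0 (median of ratios), 208 genes rose and 328 fell, so that 38.8% of the calls were rises, against 22.1% on the deposited scale. All 142 rises and 328 of the 501 falls kept their call on that scale. A call in 389 genes, 73 rises and 316 falls, survived the removal of any 1 of the 6 libraries.

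The largest rise was that of VviTAR1 (VIT_200s0225g00230), an L-tryptophan pyruvate aminotransferase of the family that takes tryptophan to indole-3-pyruvate, the first step of auxin synthesis. It reached 173, 178 and 204 FPKM in ABA E-L 36 berries, against 1.71, 1.15 and 0.95 FPKM in ABA E-L 35 berries, a log2 change of 6.37 ± 0.28 (SE, adjusted p = 3.6e-15, limma). The libraries of the stages were far apart. The gene, which lies on a scaffold with no chromosome, was low at E-L 35, near the 1 FPKM used to filter genes. A second auxin-related gene, the AUX/IAA protein gene AUX22A-like (VIT_209s0002g05150), whose family represses auxin-responsive transcription, had 235, 246 and 254 FPKM at E-L 36, against 66, 71.1 and 59.4 FPKM at E-L 35 (log2 change 1.89 ± 0.24, adjusted p = 1.4e-06, limma). It was the 1 gene of the 51 tested among AUX/IAA, ARF, GH3 and SAUR genes that rose, and none fell. None of the 16 tested genes of the auxin synthesis and transport list, which was matched by description and did not take in VviTAR1, was called, with 7 of 16 at an unadjusted p under 0.05.

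A cluster of genes annotated as globulins and glutelins, the storage proteins of seeds, rose in pericarp. Of the 12 seed storage and oleosin markers as a whole, 1 rose and none fell. A 13S globulin basic chain-like gene (VIT_212s0034g01970) had 1010.0, 872 and 1249.8 FPKM in ABA E-L 36 berries, against 38.5, 27.8 and 41.8 FPKM in ABA E-L 35 berries, a log2 change of 4.82 ± 0.31 (adjusted p = 2.7e-11, limma). The E-L 35 library with seed RNA was the lowest of the 6 for this gene, unlike for the legumin, vicilin and albumin markers. A glutelin type-A 3-like gene beside it (VIT_212s0034g01950) had 79.2, 71.7 and 96.1 FPKM at E-L 36, against 3.53, 2.03 and 5.26 FPKM at E-L 35 (log2 change 4.23, adjusted p = 6.6e-08, limma). Of 10 globulin and glutelin genes tested, a group drawn up after their values were seen, 4 rose and none fell. Of all genes 0.807% rose and 2.85% fell. Another 3 of the 10 were lower at E-L 36 without overlap, as were 38.4% of all genes. The 4 lie in 1 cluster on chromosome 12, between positions 18100795 and 18182259 of the deposited coordinates. The others were less abundant, for example the glutelin gene VIT_212s0034g01870 with 38.6, 37.2 and 47 FPKM at E-L 36, against 13, 17.3 and 13.7 FPKM at E-L 35. Reads shared between such close copies may be divided between them in a way the table does not show.

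The early nodulins rose to high abundance. These are proteins named after genes induced in legume root nodules, and the early nodulin-75 type is a proline-rich protein of the cell wall. VIT_205s0049g00770, of that type, had 1971, 1596 and 2415 FPKM in ABA E-L 36 berries, against 226, 181 and 221 FPKM in ABA E-L 35 berries (log2 change 3.23 ± 0.42, adjusted p = 1.6e-06, limma). Its neighbour VIT_205s0049g00840 had 91.5, 74.9 and 107 FPKM at E-L 36, against 6.96, 9.78 and 9 FPKM at E-L 35 (log2 change 3.26). All 4 annotated members, which lie on chromosome 5 and were grouped after their values were seen, rose in the ABA berries, as did 0.807% of all genes. The most abundant of them, VIT_205s0049g00550 (log2 change 1.195), was no longer called without ABA E-L 35 replicate 3 (1.07) or without ABA E-L 36 replicate 1 (1.10). Early nodulin-93 (VIT_211s0016g04920), a separate type, had 2015, 1432 and 1773 FPKM at E-L 36, against 244, 259.6 and 176 FPKM at E-L 35 (log2 change 2.94 ± 0.36, adjusted p = 8.7e-07, limma).

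Other leading rises were a cytochrome P450, a carboxypeptidase-like protein and a thionin. CYP78A5 (VIT_217s0000g05110), whose namesake in Arabidopsis promotes organ growth, had 526, 606 and 549 FPKM in ABA E-L 36 berries, against 69.9, 97 and 89.7 FPKM in ABA E-L 35 berries (log2 change 2.71 ± 0.36, adjusted p = 2.9e-06, limma). A serine carboxypeptidase-like gene (VIT_203s0063g00860), from a family of peptidases and acyltransferases, had 235, 201 and 208 FPKM at E-L 36, against 31.9, 26.7 and 32.9 FPKM at E-L 35 (log2 change 2.78). Thionin-like protein 2 (VIT_209s0002g04840), named for small antimicrobial peptides, had 14.6, 11.2 and 12.9 FPKM at E-L 36, against 0.801, 0.691 and 0.82 FPKM at E-L 35 (log2 change 2.97). In all of these the E-L 36 libraries lay well above the E-L 35 libraries. A germin-like gene (VIT_214s0128g00570) with 14.7, 142 and 25 FPKM at E-L 36, against 2.87, 3.85 and 6.38 FPKM at E-L 35, was called (log2 change 2.91, adjusted p = 0.0061, limma), but rested on E-L 36 replicate 2 (1.97 without it, not called) and also lost its call without ABA E-L 35 replicate 1 (2.70), replicate 2 (2.86) or replicate 3 (3.16).

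**Figure D1:**
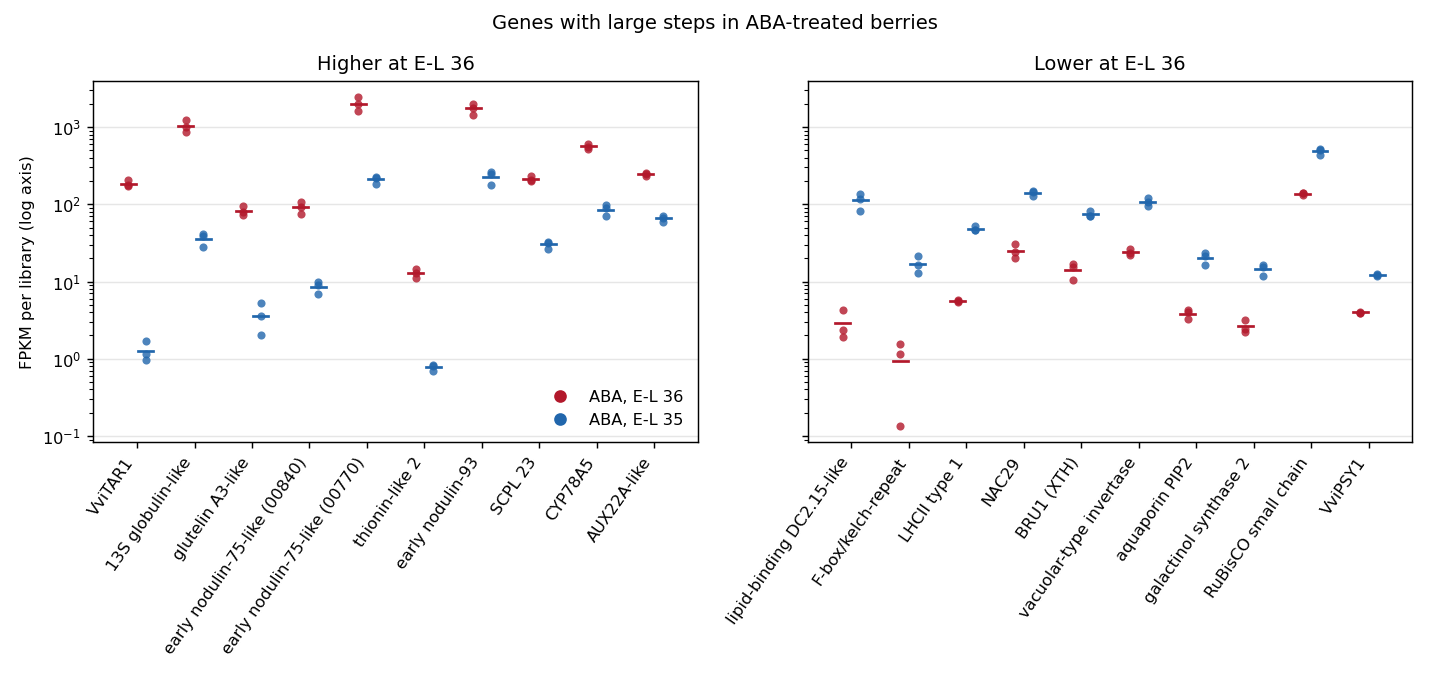
FPKM per library on a log axis for 10 genes that rose and 10 that fell, with ABA E-L 36 libraries left of ABA E-L 35 libraries in each pair, points for libraries and lines for group means of 3. The largest rises and falls were taken among genes without overlap between the stages, so that their separation is no result. VviTAR1 has the widest gap, with 173 to 204 FPKM at E-L 36 and 0.95 to 1.71 FPKM at E-L 35.

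In absolute abundance the gains lay in a few very abundant transcripts. Among the genes that rose, the largest gain was in VIT_205s0049g00760, which the table does not describe and which lies beside the early nodulin-75-like genes, with 18956, 17082 and 19237 FPKM in ABA E-L 36 berries, against 8271, 9361 and 8702 FPKM in ABA E-L 35 berries (log2 change 1.07, adjusted p = 0.0012, limma). A class IV chitinase (VIT_205s0094g00340), a pathogenesis-related protein that ripe berries store, had 8351, 8287 and 8298 FPKM at E-L 36, against 4383, 4062 and 3647 FPKM at E-L 35 (log2 change 1.05, adjusted p = 0.0018, limma), and was not called without ABA E-L 35 replicate 3 (0.98). Neither call held under quantile normalization, where the changes were 0.58 and 0.33. The 2 most abundant transcripts, the undescribed VIT_205s0049g00520 and the ripening-related grip22 gene VIT_206s0004g02560, were higher at E-L 36 in all 3 libraries but did not pass the rule, with log2 changes of 0.55 (adjusted p = 0.026) and 0.69 (adjusted p = 0.053, both limma). Of 67 tested thaumatin, chitinase and other pathogenesis-related genes, 1 rose and 4 fell, and without ABA E-L 35 replicate 3 none rose and 2 fell.

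The photosynthetic apparatus fell together. Of 39 tested genes for chlorophyll binding proteins, photosystem subunits and the RuBisCO small subunit, 25 fell and none rose, where 2.85% of all genes fell, and 35 had no overlap between stages in the lower direction (38.4% of all genes had none). The median change was -1.29, against -0.15 over all genes tested. Summed over the list, transcripts came to 853, 866 and 831 FPKM in ABA E-L 36 berries, against 2156, 2567 and 2341 FPKM in ABA E-L 35 berries. The E-L 36 plots were close to each other, and each removal of 1 library left 25 or 26 genes called. On the median-of-ratios scale 23 of the 39 fell and the median was -1.10.

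Within this list the largest fall was in a light-harvesting gene. The LHCII type 1 chlorophyll a-b binding protein (VIT_210s0003g02900), which collects light for photosystem II, had 5.49, 5.66 and 5.82 FPKM in ABA E-L 36 berries, against 45.8, 52.6 and 46.7 FPKM in ABA E-L 35 berries (log2 change -2.89 ± 0.30, adjusted p = 8.6e-08, limma). A RuBisCO small chain (VIT_217s0000g03690), part of the enzyme that fixes CO2, had 132, 142 and 139 FPKM at E-L 36, against 439, 511 and 514 FPKM at E-L 35 (log2 change -1.82). The photosystem I reaction centre subunit II (VIT_205s0020g03180), which docks ferredoxin, had 194, 200.2 and 185 FPKM at E-L 36, against 452, 545 and 468 FPKM at E-L 35 (log2 change -1.33). These 3 genes fell in every library relative to every E-L 35 library. The 1 member with a higher mean at E-L 36 was another small-chain clone, VIT_211s0052g00810, with a log2 change of 0.22 that did not pass.

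Chloroplast functions outside the photosystems moved the same way, in groups drawn up after their values were seen. Of 13 tested Calvin cycle genes 9 fell and none rose, where 2.85% of all genes fell. Among them, RuBisCO activase (VIT_206s0004g05180), which frees the enzyme of bound inhibitors, had 15.4, 15.8 and 14.3 FPKM at E-L 36, against 46.5, 46.4 and 51.8 FPKM at E-L 35 (log2 change -1.61), and phosphoribulokinase (VIT_202s0109g00080), which regenerates the CO2 acceptor, had 15.7, 15.9 and 15.7 FPKM at E-L 36, against 32.7, 38.5 and 46.6 FPKM at E-L 35 (log2 change -1.25). Of 18 photorespiration genes 4 fell, and of 15 chlorophyll synthesis genes 3 fell, including a protochlorophyllide reductase (VIT_219s0014g03160) with 15.3, 13.6 and 13.5 FPKM at E-L 36, against 37.7, 34.6 and 32.9 FPKM at E-L 35. Of all 899 tested genes outside the photosystem list whose description places the protein in the chloroplast, which take in such genes of the groups just named, 55 (6.12%) fell and 2 rose. The thioredoxin-like protein CDSP32 (VIT_218s0001g00820), a chloroplast protein known from drought-stressed leaves, fell by 2.21 on the log2 scale (adjusted p = 7.3e-06, limma).

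**Figure D2:**
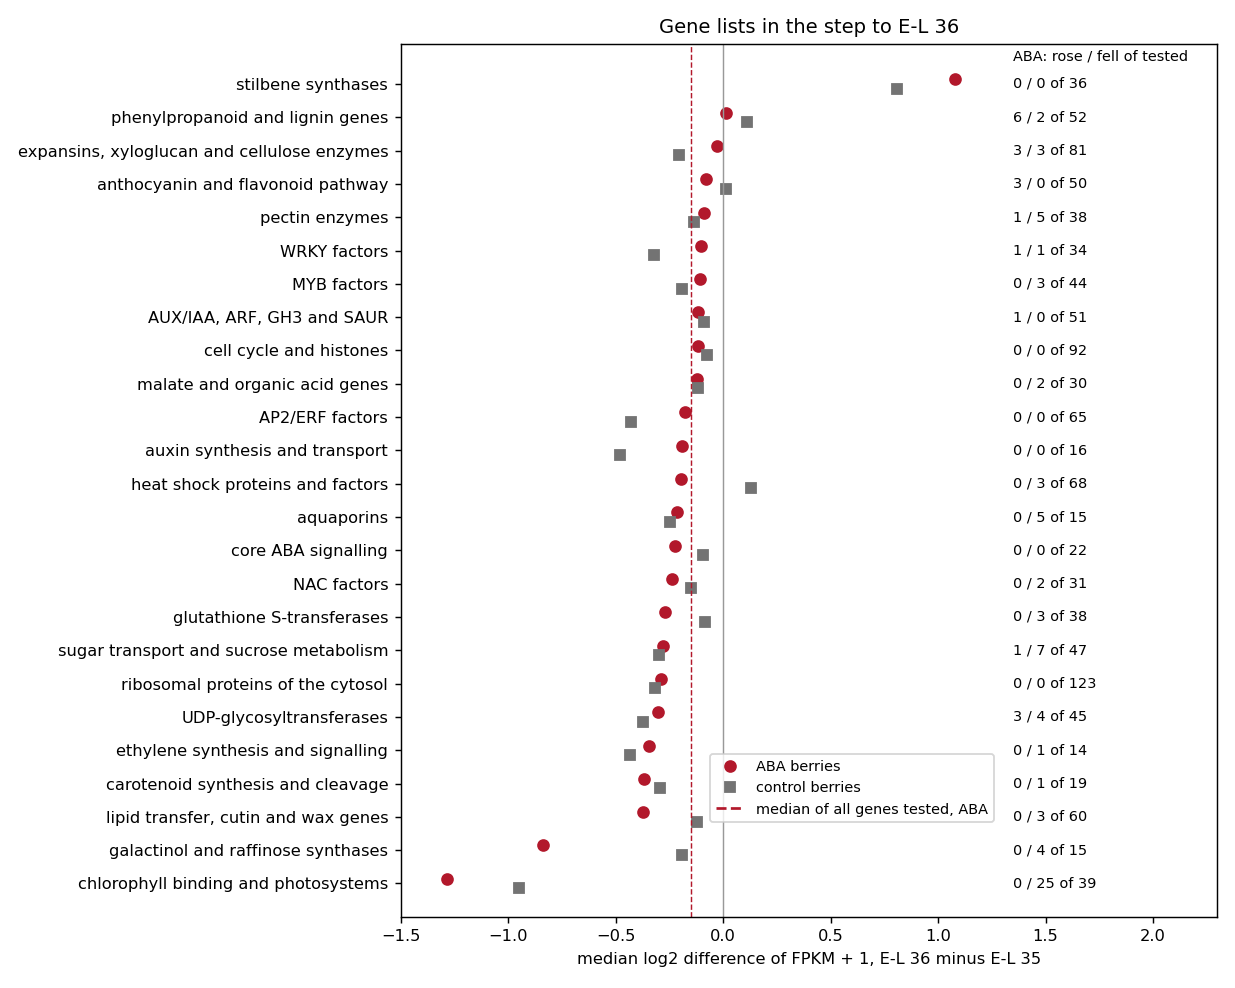
Median log2 change from E-L 35 to E-L 36 of the tested genes of 25 gene lists, with circles for ABA-treated berries and squares for control berries, the dashed line at the median of all genes in the ABA step (-0.15) and the numbers that rose and fell in ABA berries beside each list. The photosystem list lies farthest to the left (-1.29 in ABA berries) and stilbene synthases farthest to the right (1.08), where none passed the rule.

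Acid invertases, the enzymes that split sucrose into glucose and fructose, fell. Of 47 tested sugar transport and sucrose metabolism genes, 7 fell and 1 rose, with a median of -0.28, and in 5 of the 6 removals of a library none rose. The soluble, vacuolar-type invertase VIT_216s0022g00670 had 26.1, 23.2 and 22.1 FPKM in ABA E-L 36 berries, against 107, 96 and 121 FPKM in ABA E-L 35 berries (log2 change -2.13 ± 0.22, adjusted p = 7.3e-08, limma). The acid invertase VIT_202s0154g00090 had 19.5, 19.8 and 18.4 FPKM at E-L 36, against 51.3, 55.5 and 65.4 FPKM at E-L 35 (log2 change -1.52, adjusted p = 4.2e-07, limma). All 4 tested acid invertase genes, a group drawn up after the values were seen, fell, as did 2.85% of all genes. Each of the 4 kept its call whichever library was left out. The most abundant sugar gene called was a sucrose synthase (VIT_211s0016g00470), which cleaves sucrose reversibly, with 261, 253 and 233 FPKM at E-L 36, against 565, 539 and 576 FPKM at E-L 35 (log2 change -1.17, adjusted p = 8.0e-08, limma), although on the median-of-ratios scale its change was -0.97 and below the limit. SWEET14 (VIT_217s0000g00830), a sugar exporter, was abundant at both stages and did not pass (log2 change 0.18).

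Galactinol synthases make the donor for raffinose-family sugars, which accumulate under drought and cold. All 15 tested galactinol and raffinose synthase genes were lower at E-L 36 and 4 fell, with a median of -0.84. Galactinol synthase 2 (VIT_214s0060g00790, chromosome 14) had 9.13, 19.2 and 16.5 FPKM in ABA E-L 36 berries, against 75.2, 61.2 and 61.3 FPKM in ABA E-L 35 berries (log2 change -2.12 ± 0.36, adjusted p = 4.9e-05, limma). Its close copy VIT_214s0060g00760 had 2.21, 2.42 and 3.22 FPKM at E-L 36, against 16.5, 15.5 and 11.7 FPKM at E-L 35 (log2 change -2.10). The stages were well separated in both. Without ABA E-L 36 replicate 1 the number that fell was 2 and the median -0.54, and without the E-L 35 library with seed RNA 4 fell with a median of -0.93.

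Among 30 malate and organic acid genes 2 fell and none rose, and 1 of these kept its call in each removal of a library and on the median-of-ratios scale. It was the tonoplast dicarboxylate transporter (VIT_200s0187g00130), which carries malate across the vacuolar membrane, with 4.86, 8.77 and 5.02 FPKM in ABA E-L 36 berries, against 21.7, 22.8 and 20.1 FPKM in ABA E-L 35 berries (log2 change -1.68, adjusted p = 4.3e-05, limma). Of 15 tested aquaporins, the water channels of plasma membrane and tonoplast, 5 fell and none rose, and 3 fell on the median-of-ratios scale. Without overlap 8 were lower and 4 higher at E-L 36 (38.4% and 9.81% of all genes). The list summed to 3477 to 3754 FPKM at E-L 36, against 3674 to 3865 FPKM at E-L 35. The most abundant, VIT_213s0019g04280, had 1825, 1601 and 1631 FPKM at E-L 36, against 1400, 1479 and 1390 FPKM at E-L 35 (log2 change 0.24, not called). The plasma membrane aquaporin PIP2 (VIT_206s0004g02850) had 4.22, 3.97 and 3.31 FPKM at E-L 36, against 23.2, 21.4 and 16.3 FPKM at E-L 35 (log2 change -2.13, adjusted p = 1.7e-07, limma). The more abundant PIP1-2 (VIT_215s0046g02410) fell by 1.12, with 86.7, 75 and 84.5 FPKM at E-L 36, against 181, 178 and 178 FPKM at E-L 35, but its change was -0.93 on the median-of-ratios scale.

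Cell wall genes moved in both directions. Of 81 tested expansin, xyloglucan and cellulose genes 3 rose and 3 fell, with a median of -0.03, and of 38 pectin genes 1 rose and 5 fell. Of the first list 1 rose without ABA E-L 36 replicate 2, and of the pectin genes 2 fell without ABA E-L 36 replicate 3 or without ABA E-L 35 replicate 3. On the median-of-ratios scale the balance of the pectin genes turned, with 2 rises and 1 fall. A probable xyloglucan endotransglucosylase (VIT_202s0012g02220), which cuts and rejoins the xyloglucan that ties cellulose fibrils, had 253, 228 and 236 FPKM in ABA E-L 36 berries, against 99.4, 104 and 103 FPKM in ABA E-L 35 berries (log2 change 1.21 ± 0.11, adjusted p = 7.2e-09, limma). The brassinosteroid-regulated BRU1 gene (VIT_205s0062g00250), of the same enzyme family, had 15.2, 17 and 10.6 FPKM at E-L 36, against 69.8, 81.1 and 70.9 FPKM at E-L 35 (log2 change -2.32, adjusted p = 1.2e-07, limma). Pectin methylesterase PME1 (VIT_212s0035g01900), which removes methyl groups from pectin, had 176, 125 and 121 FPKM at E-L 36, against 322, 293 and 339.5 FPKM at E-L 35 (log2 change -1.19, adjusted p = 5.5e-07, limma), and its change on the median-of-ratios scale was -0.9998, not called.

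The largest fall of all was in a proline-rich lipid-binding protein of the carrot DC2.15 type (VIT_204s0008g05640), with 2.39, 1.92 and 4.32 FPKM in ABA E-L 36 berries, against 82.8, 136 and 118 FPKM in ABA E-L 35 berries (log2 change -4.89 ± 0.45, adjusted p = 1.2e-08, limma). Its E-L 36 libraries were all far below the E-L 35 libraries. The 60 tested lipid transfer, cutin and wax genes held 3 falls and no rise, and their sum was 749, 887 and 841 FPKM at E-L 36, against 1009, 2137 and 976 FPKM at E-L 35, the middle value being that of the library with seed RNA. An F-box/kelch-repeat protein (VIT_209s0002g04930), of a type that selects proteins for ubiquitin-mediated breakdown, had 0.135, 1.55 and 1.15 FPKM at E-L 36, against 12.7, 21.4 and 16.5 FPKM at E-L 35 (log2 change -3.25, adjusted p = 2.3e-05, limma). A calmodulin-like gene (VIT_218s0001g10620), for a calcium sensor, fell by 2.69 on the log2 scale.

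In the ABA and carotenoid pathways few genes passed. Of 12 tested genes for ABA synthesis and breakdown 2 fell and none rose, and 1 fell without ABA E-L 36 replicate 1 or 3 or without ABA E-L 35 replicate 3, and on the median-of-ratios scale. VviNCED3 (VIT_219s0093g00550, described in the table as 9-cis-epoxycarotenoid dioxygenase 1), which makes the cleavage that commits carotenoids to ABA, had 62.1, 98.7 and 69.4 FPKM in ABA E-L 36 berries, against 168, 199 and 188 FPKM in ABA E-L 35 berries (log2 change -1.28 ± 0.30, adjusted p = 0.0016, limma). The stages did not overlap, but the call was lost without ABA E-L 36 replicate 1 (-1.15). Of 19 carotenoid synthesis and cleavage genes 1 fell, VviPSY1 (VIT_204s0079g00680), a phytoene synthase at the entry to the pathway, with 4.06, 3.96 and 3.92 FPKM at E-L 36, against 12.1, 11.7 and 12.5 FPKM at E-L 35 (log2 change -1.39 ± 0.16, adjusted p = 2.7e-07, limma). None of 22 core ABA signalling genes (receptors, PP2C phosphatases, SnRK2 kinases and ABF factors) was called, with a median of -0.22. At an unadjusted p under 0.05 were 11 of the 22, beside at least 5771 of all 17598 genes. The list was matched by description and did not take in the PP2C gene VIT_206s0004g06840. That gene had a higher step in ABA than in control berries (ABA step minus control step 2.13) and is given with the flagged results. VviCCD4b, a carotenoid cleavage dioxygenase linked to norisoprenoids, was higher at E-L 36 without passing (log2 change 0.94, adjusted p = 0.016, limma).

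Few other hormone genes passed. Of 14 ethylene genes 1 fell, the 1-aminocyclopropane-1-carboxylate oxidase VIT_213s0047g00210, which makes ethylene, with 2.98, 3.33 and 3.09 FPKM in ABA E-L 36 berries, against 16.1, 11.2 and 14.1 FPKM in ABA E-L 35 berries (log2 change -1.83, adjusted p = 2.9e-05, limma). Of 31 oxylipin and jasmonate genes 2 fell, among them a jasmonate O-methyltransferase-like gene (VIT_204s0023g03810), which would make methyl jasmonate, with 2.02, 2.34 and 1.62 FPKM at E-L 36, against 7.52, 9.75 and 9.04 FPKM at E-L 35 (log2 change -1.71, adjusted p = 1.6e-06, limma).

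The phenolic pathways changed in few genes. Of 50 tested anthocyanin and flavonoid genes 3 rose and none fell, with a median of -0.08. An anthocyanidin 3-O-glucosyltransferase (VIT_206s0004g06370), of the family that adds the sugar that stabilises anthocyanins, had 22.6, 21.4 and 20.2 FPKM in ABA E-L 36 berries, against 8.58, 7.07 and 7.51 FPKM in ABA E-L 35 berries (log2 change 1.36 ± 0.18, adjusted p = 2.2e-06, limma). The colour regulators VviMYBA1, VviMYBA2 and VviMYBA3 had log2 changes of -0.85, -0.61 and -0.58 and were not called (adjusted p = 0.062, 0.26 and 0.31, limma). Leucoanthocyanidin reductase 1 (VIT_201s0011g02960), which makes tannin units, had 1.42, 1.4 and 0.949 FPKM at E-L 36, against 5.31, 4.78 and 4.3 FPKM at E-L 35 (log2 change -1.37, adjusted p = 1.7e-07, limma).

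Stilbene synthases, which make resveratrol, were higher at E-L 36 on the median (1.08) but none of 36 tested genes was called, with 13 of 36 at an unadjusted p under 0.05 and 28 of 36 without overlap in the higher direction (9.81% of all genes). Their summed level was 47.4, 128.5 and 63.4 FPKM in ABA E-L 36 berries, against 13.7, 14.1 and 18.4 FPKM in ABA E-L 35 berries, and E-L 36 replicate 2 was the highest of its group in 33 of the 36. Of 52 phenylpropanoid and lignin genes 6 rose and 2 fell. Of 12 phenylalanine ammonia-lyase genes, the entry to the pathway and a group drawn up after the values were seen, 5 rose (0.807% of all genes did). An example is VIT_216s0039g01100 with 13.6, 29.2 and 13.5 FPKM at E-L 36, against 3.22, 3.08 and 4.57 FPKM at E-L 35 (log2 change 2.02, adjusted p = 0.0012, limma). Replicate 2 was again the highest and the gene was not called without it (1.67), and without that library 1 gene of the phenylpropanoid list rose, while each other removal left 2 to 4 rises. Stilbene synthases and phenylalanine ammonia-lyases are near-identical copies in clusters, so that the level of a single copy is uncertain.

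Of the transcription factor families, NAC genes gave 2 falls among 31 tested, MYB genes 3 falls among 44, and WRKY genes 1 rise and 1 fall among 34. Of the 2 NAC falls 1 was left without ABA E-L 36 replicate 1 or without ABA E-L 35 replicate 1 or 2, and neither WRKY call held in all removals. None of 65 AP2/ERF genes was called (22 of 65 at an unadjusted p under 0.05), and none of 12 MADS-box genes (3 of 12). NAC29 (VIT_201s0026g02710), whose Arabidopsis namesake promotes leaf senescence, was the most abundant factor of these families that fell, with 20.4, 31 and 24.1 FPKM in ABA E-L 36 berries, against 144, 146 and 126 FPKM in ABA E-L 35 berries (log2 change -2.43 ± 0.28, adjusted p = 4.3e-07, limma). A sigma factor binding protein of the chloroplast (VIT_208s0007g05180) had 1.94, 0.941 and 1.42 FPKM at E-L 36, against 8.28, 11.1 and 15.7 FPKM at E-L 35 (log2 change -2.36). Growth genes did not pass, with 0 of 92 cell cycle and histone genes (33 of 92 at an unadjusted p under 0.05) and 0 of 123 cytosolic ribosomal proteins (84 of 123, median -0.29) called. Of 11 vascular markers 1 fell, the phloem protein PP2-A1-like gene VIT_201s0011g01790 (log2 change -2.06), and their sum was 118, 140 and 144 FPKM at E-L 36, against 177, 174 and 197 FPKM at E-L 35; their part in the other results was not tested.

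Few stress-related genes passed. Of 68 tested heat shock genes 3 fell and none rose, where 2.85% of all genes fell, with a median of -0.20. Heat shock factor HSF30 (VIT_204s0008g01110), a transcription factor of the heat response, had 1.37, 2.39 and 1.39 FPKM in ABA E-L 36 berries, against 8.42, 7.85 and 5.25 FPKM in ABA E-L 35 berries (log2 change -1.59, adjusted p = 1.1e-04, limma). ABA E-L 36 replicate 1 was the lowest of its group in 39 of the 68, and 1 gene fell without it, 1 without ABA E-L 35 replicate 1 and 6 without ABA E-L 36 replicate 2. Late embryogenesis abundant and seed genes gave 1 rise among 26, but 24 of the 26 were highest in the library with seed RNA, and their median was -0.28 with it and 0.56 without it. Of 38 glutathione S-transferases 3 fell, and 1 fell without the library with seed RNA or on the median-of-ratios scale. The most abundant of the 3, VIT_219s0015g02680, had 119, 151 and 156 FPKM at E-L 36, against 314, 356 and 324 FPKM at E-L 35 (log2 change -1.23).

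Switch genes are a published set tied to the onset of ripening, of which the study selected 147 that differed between its treatments and control. Of the 146 tested, 24 rose and 4 fell, with a median of 0.39, and in each removal of 1 library 21 to 23 rose and 1 or 2 fell. On the median-of-ratios scale 30 rose and none fell. Because they were selected on these samples, their direction is not independent evidence.

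The same step was compared in control berries, to ask how far the ABA berries moved as control fruit did. The paper reports that ABA advanced the onset of ripening and that NAA delayed it. Berries of the same stage thus differ in sampling date between treatments, and date and treatment cannot be told apart. In control berries 820 genes changed (4.66%), 139 (0.79%) rising and 681 (3.87%) falling, with a median of -0.16. Of the 643 ABA calls, 608 moved in the same direction in control berries, as did 74.2% of all genes, and 298 were called there in the same direction. These are 46.3% of the ABA calls and 36.3% of the control calls. Only 3 genes were called in opposite directions. Across the 17598 genes, which are not independent, the ABA and control changes had a Pearson r of 0.62.

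Most leading genes thus changed in the same direction in both treatments, from different starting levels. VviTAR1 (VIT_200s0225g00230) changed by 6.37 in ABA berries and by 4.90 in control berries, where it averaged 344 FPKM at E-L 36 and 11.6 FPKM at E-L 35 (difference of step 1.47, adjusted p = 0.03, limma). The 13S globulin gene VIT_212s0034g01970 changed by 4.82 in ABA berries and by 3.31 in control berries, and the DC2.15-type gene VIT_204s0008g05640 by -4.89 and -3.80. The photosystem list had 25 falls and a median of -1.29 in ABA berries, against 17 falls and a median of -0.95 in control berries, with 616, 1075 and 770 FPKM in control E-L 36 berries, against 2481, 1420 and 1704 FPKM in control E-L 35 berries. No photosystem gene had a step that differed between treatments by the rule (0.676% of all genes did). Calvin cycle genes gave 9 falls in ABA berries and 2 in control berries, and acid invertases 4 and 1, again with no member whose step differed.

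**Figure D3:**
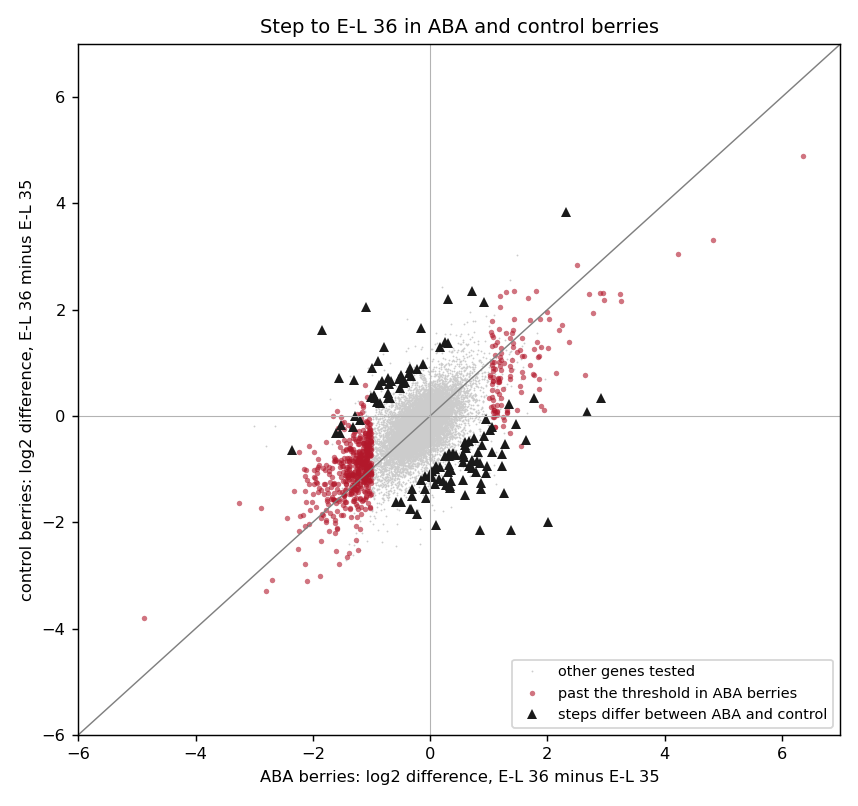
Log2 change from E-L 35 to E-L 36 in ABA-treated berries (x axis) and in control berries (y axis) for the 17598 genes tested, with triangles for the 119 genes whose steps differed by the rule. Most called genes lie in the quadrants where both changes have the same sign.

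A test of the difference itself (the ABA step minus the control step) called 119 genes (0.676%), 74 (0.421%) with a higher step in ABA berries and 45 (0.256%) with a lower one. This count moved with single libraries. It was 65 without control E-L 36 replicate 1, 71 without ABA E-L 36 replicate 3, 73 without control E-L 35 replicate 1, 76 without ABA E-L 35 replicate 3, 77 without ABA E-L 36 replicate 2, 78 without ABA E-L 35 replicate 1 and 79 without control E-L 36 replicate 3. The higher steps numbered 38 without ABA E-L 35 replicate 2, and the lower steps 29 without ABA E-L 35 replicate 3. Only 26 of the 119 were also among the 643 genes called in the ABA step, of which 14 rose with a higher step and 11 fell with a lower step than in control berries.

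Some differences held under every alternative in which the gene was tested. They included a nudix hydrolase, an ERF factor and a phosphatase that were higher at E-L 36 in ABA berries and lower at E-L 36 in control berries. Nudix hydrolase VIT_217s0000g02050, of a family that cleaves nucleoside diphosphate derivatives, had 8.15, 8.26 and 11.6 FPKM in ABA E-L 36 berries, against 2.13, 3.6 and 3.16 FPKM in ABA E-L 35 berries, and 2.68, 3.02 and 2.53 FPKM in control E-L 36 berries, against 21.5, 10.5 and 16.7 FPKM in control E-L 35 berries (difference of step 3.54 ± 0.40, adjusted p = 6.0e-06, limma). ERF014 (VIT_218s0001g03240), of the ethylene response factor family, had 20.7, 19.9 and 23.1 FPKM in ABA E-L 36 berries, against 18, 9.11 and 8.56 FPKM in ABA E-L 35 berries, and 9.01, 9.64 and 10.4 FPKM in control E-L 36 berries, against 41.2, 41.3 and 57.4 FPKM in control E-L 35 berries (difference 3.001 ± 0.42, adjusted p = 1.3e-04, limma). Its ABA step alone did not pass the rule.

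Others ran the opposite way. MIOX1 (VIT_209s0002g02940), an inositol oxygenase on a route to cell wall sugars, had 6.04, 7.58 and 6.43 FPKM in ABA E-L 36 berries, against 18.5, 25.7 and 20.5 FPKM in ABA E-L 35 berries, and 20.9, 19 and 17.7 FPKM in control E-L 36 berries, against 11, 10.5 and 12.4 FPKM in control E-L 35 berries (difference -2.27 ± 0.31, adjusted p = 8.7e-05, limma). A chloroplast dnaJ11 chaperone gene (VIT_219s0015g01370), a partner of HSP70 proteins, had 125, 150 and 136 FPKM in ABA E-L 36 berries, against 186, 286 and 314 FPKM in ABA E-L 35 berries, and 80.9, 113 and 143 FPKM in control E-L 36 berries, against 64, 46.2 and 50.3 FPKM in control E-L 35 berries (difference -1.93 ± 0.36, adjusted p = 0.0021, limma). PME1 (VIT_212s0035g01900), which fell in ABA berries, had 172, 213 and 205 FPKM in control E-L 36 berries, against 197, 201 and 221 FPKM in control E-L 35 berries, so that its libraries overlapped there (difference -1.12 ± 0.20, adjusted p = 0.0014, limma). By list, 5 of 68 heat shock genes had a lower step in ABA berries (0.256% of all genes did), and in control berries 5 heat shock genes rose and none fell. Summed over the 68, transcripts came to 1960, 2761 and 2392 FPKM in ABA E-L 36 berries, against 2607, 2504 and 2364 FPKM in ABA E-L 35 berries, and to 2534, 2923 and 2894 FPKM in control E-L 36 berries, against 2143, 1979 and 2443 FPKM in control E-L 35 berries. The ABA libraries of the stages overlapped and the control libraries did not.

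**Figure D4:**
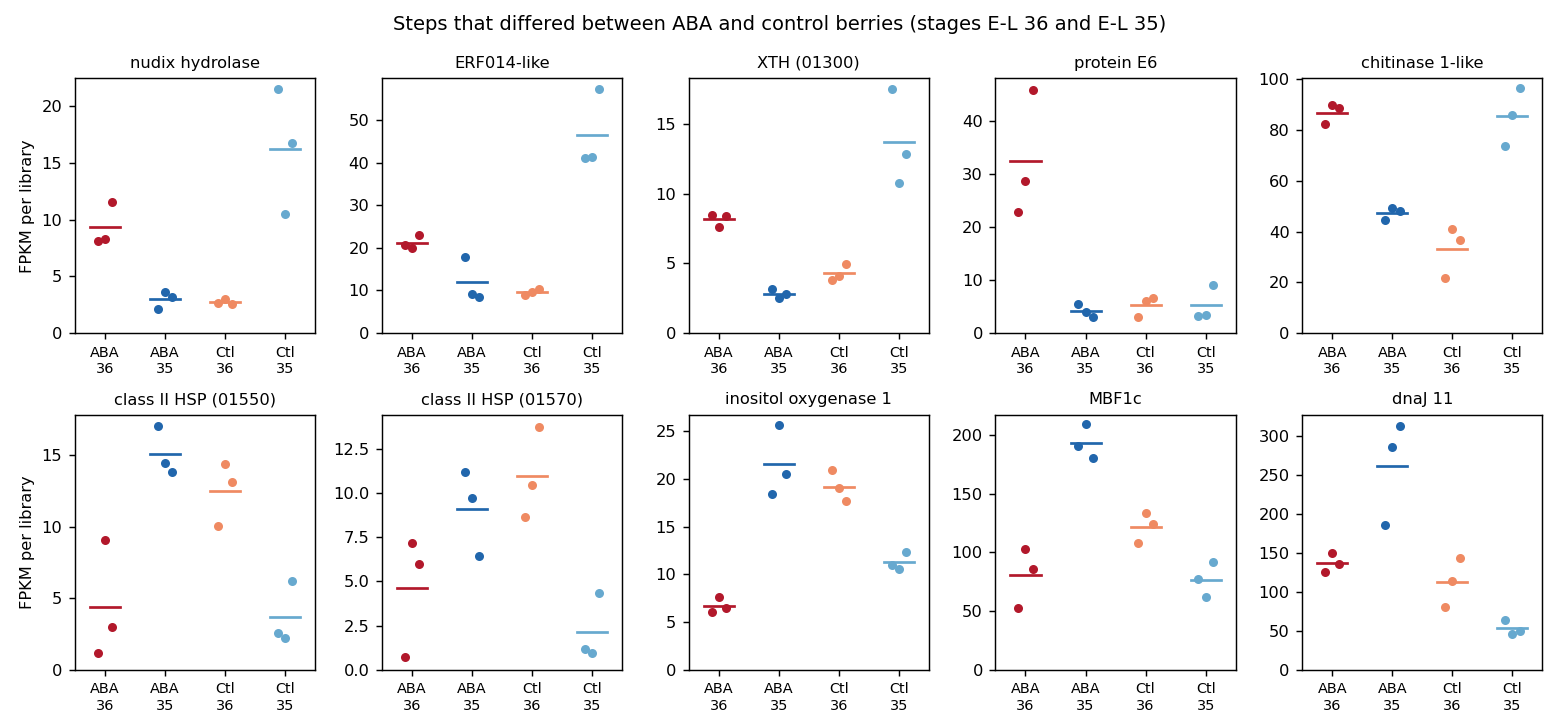
FPKM per library on a linear axis from 0 for 10 genes whose step differed between ABA and control berries, in the order ABA E-L 36, ABA E-L 35, control E-L 36 and control E-L 35, with points for the 3 libraries of each group and lines for their means. The nudix hydrolase is higher at E-L 36 in ABA berries (8.15 to 11.6 against 2.13 to 3.6 FPKM) and lower at E-L 36 in control berries (2.53 to 3.02 against 10.5 to 21.5 FPKM).

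In NAA-treated berries the step took in more genes, with 4862 called (27.6%), of which 1574 (8.94%) rose and 3288 (18.7%) fell. The ABA and NAA steps differed in 4176 genes (23.7%), with a higher step in ABA berries in 2374 (13.5%) and a lower one in 1802 (10.2%). Of the 643 ABA calls 309 differed, and the 2 sets of changes had a Pearson r of 0.37 across genes. VviTAR1 and the 13S globulin gene VIT_212s0034g01970 rose there too, by 5.58 and 3.87, whereas AUX22A-like (VIT_209s0002g05150) changed by -0.54 and protein E6 (VIT_212s0028g03120) by -1.93.

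Protein E6 (VIT_212s0028g03120), named for a cotton fibre gene, separated the treatments in another way. It had 22.8, 28.8 and 46 FPKM in ABA E-L 36 berries, against 5.49, 4.07 and 2.94 FPKM in ABA E-L 35 berries (log2 change 2.67 ± 0.35, adjusted p = 2.5e-06, limma), and 3.12, 6.05 and 6.63 FPKM in control E-L 36 berries, against 3.13, 3.47 and 9.12 FPKM in control E-L 35 berries, where the libraries overlapped. The difference of step was 2.59 ± 0.50 (adjusted p = 0.003, limma), and was not called without ABA E-L 35 replicate 3 (2.41), ABA E-L 36 replicate 3 (2.31) or control E-L 36 replicate 1 (2.31).

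Set in the course of ABA berries from E-L 34 to harvest, the leading rises differed in what came next. VviTAR1 (VIT_200s0225g00230) averaged 0.333, 1.27, 185 and 345 FPKM at E-L 34, 35, 36 and 38. CYP78A5 (VIT_217s0000g05110) averaged 84.1, 85.5, 560.2 and 3518 FPKM, and the 13S globulin gene VIT_212s0034g01970 averaged 9.27, 36, 1044 and 2315 FPKM, so that these 3 were highest at harvest. By contrast VIT_205s0049g00770, the abundant early nodulin-75-like gene, averaged 39.7, 209.6, 1994 and 595 FPKM, thionin-like protein 2 (VIT_209s0002g04840) 0.869, 0.771, 12.9 and 2.84 FPKM, and protein E6 (VIT_212s0028g03120) 5.2, 4.17, 32.5 and 0.116 FPKM, so that these were highest at E-L 36. Some falls went on, and how many of all the falls did so was not counted. Photosystem I subunit II (VIT_205s0020g03180) averaged 601, 488, 193 and 13.6 FPKM, invertase VIT_216s0022g00670 122, 108, 23.8 and 2.3 FPKM, and VviNCED3 (VIT_219s0093g00550) 137, 185, 76.7 and 4.53 FPKM. The RuBisCO small chain (VIT_217s0000g03690) did not, with 520.4, 488, 137 and 166 FPKM.

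**Figure D5:**
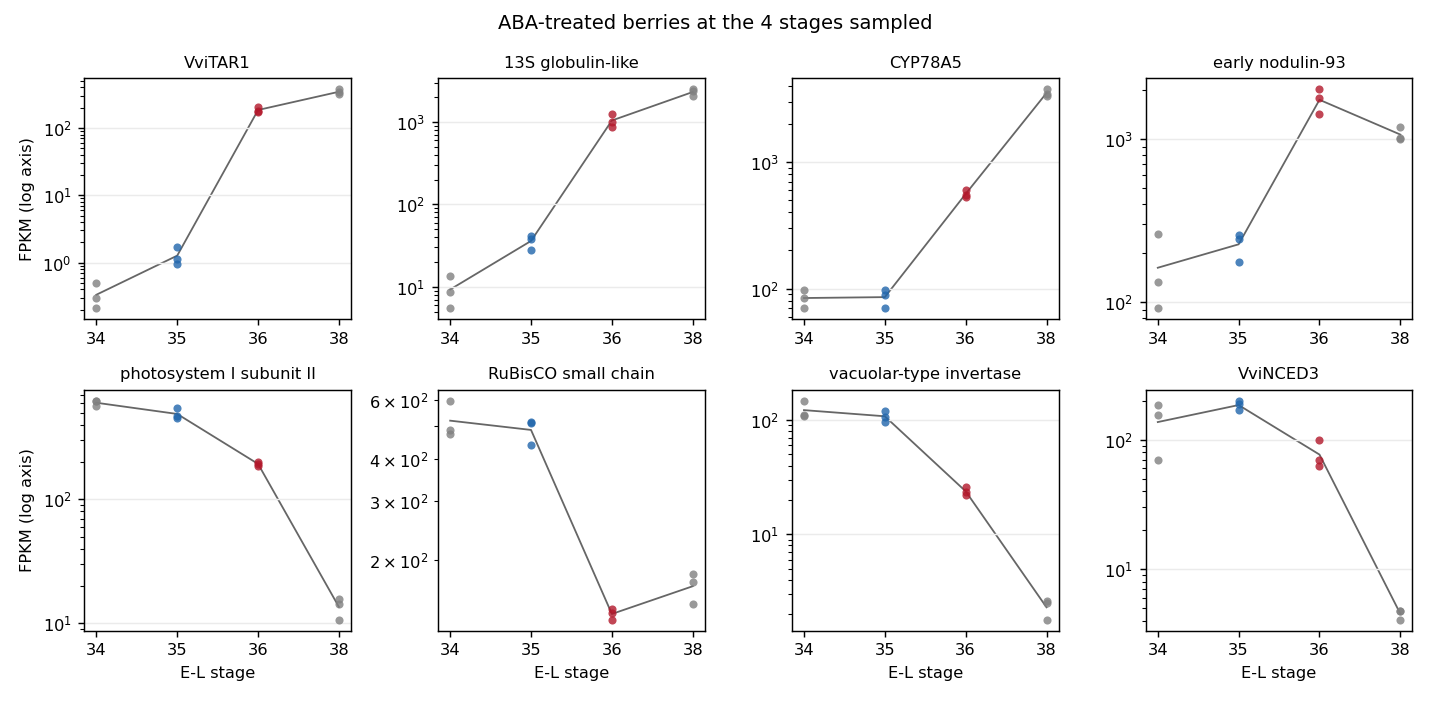
FPKM of 8 genes in ABA-treated berries at E-L 34, 35, 36 and 38 on a log axis, with points for the 3 libraries and lines through the means. VviTAR1, the 13S globulin gene and CYP78A5 are highest at E-L 38, and photosystem I subunit II, the invertase and VviNCED3 are lowest there.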

How the data were processed

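RNA from deseeded pericarp was sequenced in 36 libraries of 12 groups. The authors aligned the reads to the CRIBI grape genome with TopHat and deposited 1 table of FPKM for 25280 genes. The study tabulates reads and mapping per library, which are not used here, and the study's methods call the unit RPKM. The genome version, the counting tool and strand use are not given in the sources used here. Column numbers differ from the letters in the sample titles, so columns were assigned to groups only. FPKM were tested as log2(FPKM + 1) with limma 3.58.1 (trend, R 4.3.3) over all groups (24 residual degrees of freedom) in the 17598 genes with at least 1 FPKM in 3 libraries, since a count test needs counts. The limits, an adjusted p of 0.01 and a log2 change of 1, are those of the study. On this scale changes of low genes are understated. With 3 libraries against 3, an exact permutation test of 1 gene cannot fall below 0.1. Genes on scaffolds without a chromosome numbered 2196. Named genes were those with the 10 largest rises and falls (mean of at least 10 FPKM), the 5 largest gains and losses in FPKM, up to 3 per list, the 5 largest differences of step in each direction, and genes the study names, of which some were left out. The members and lists were chosen with earlier results of these data known. Alternatives were TPM, median-of-ratios and quantile scaling, a pseudocount of 0.1, no filter, a mean of at least 5 FPKM, the 6 libraries alone, a replicate block and removal of each library. The fit was tested on simulated data.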

Additional observations from a re-analysis of the deposited data

Results flagged for a closer look

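These 14 genes had steps that differed between ABA and control berries by the test of the difference. The steps are log2 changes from E-L 35 to E-L 36, and the values given are the ABA step minus the control step (limma, adjusted over all genes tested). Held under every alternative in which they were tested were nudix hydrolase VIT_217s0000g02050 (3.54), ERF014 (VIT_218s0001g03240, 3.001), protein phosphatase VIT_206s0004g06840 (2.13), PME1 (VIT_212s0035g01900, -1.12), MIOX1 (VIT_209s0002g02940, -2.27) and dnaJ11 (VIT_219s0015g01370, -1.93). The phosphatase, of the PP2C type that includes negative regulators of ABA signalling, had 24.5, 26.8 and 25.6 FPKM in ABA E-L 36 berries, against 13.5, 14.6 and 12.7 FPKM in ABA E-L 35 berries, and 13.2, 9.76 and 13 FPKM in control E-L 36 berries, against 29.8, 25.2 and 35.9 FPKM in control E-L 35 berries.

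The small heat shock gene VIT_204s0008g01550 (-3.47) had 1.18, 9.05 and 3 FPKM in ABA E-L 36 berries, against 17, 14.4 and 13.9 FPKM in ABA E-L 35 berries, and 10.1, 14.4 and 13.1 FPKM in control E-L 36 berries, against 2.56, 2.24 and 6.24 FPKM in control E-L 35 berries. Its neighbour VIT_204s0008g01570 (-3.15) and the stress coactivator MBF1c (VIT_211s0016g04080, -1.97) ran the same way. The difference for VIT_204s0008g01570 lost its call without 8 of the 12 libraries, among them ABA E-L 36 replicate 1 (-2.45), and that for MBF1c without 10 of the 12 (range -2.05 to -1.69). ABA E-L 36 replicate 1 was the lowest of its group in 39 of 68 heat shock genes, and its part in these differences was not tested beyond its removal. Over the 68 genes, 41.2% were lower at E-L 36 in ABA berries and higher at E-L 36 in control berries, against 13.8% of all genes tested.

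The other genes with a higher step in ABA berries were a xyloglucan endotransglucosylase (VIT_211s0052g01300, 2.72), which lost its call without any 1 of the 12 libraries (2.54 to 2.87), protein E6 (VIT_212s0028g03120, 2.59), a chitinase-like gene (VIT_215s0046g01590, 2.25), which kept its call only without control E-L 36 replicate 2 (1.98 to 2.35 over all removals), and a pectate lyase (VIT_201s0137g00240, 1.61), which lost it in 9 of the 12 removals. The pectate lyase had 84.7, 79.6 and 82 FPKM in ABA E-L 36 berries, against 89.5, 106 and 94 FPKM in ABA E-L 35 berries, and 27.5, 52.3 and 42.2 FPKM in control E-L 36 berries, against 116, 121 and 209 FPKM in control E-L 35 berries. The sigma factor binding protein VIT_208s0007g05180 (-1.72) lost its call in 7 of the 12 removals.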

How the results depend on the processing

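The 643 calls became 944 as TPM (138 rises and 806 falls), 1085 with a pseudocount of 0.1 (192 and 893) and 5771 at an adjusted p of 0.05 with no limit on size. Falls numbered 328 on the median-of-ratios scale and 284 after quantile normalization, where rises made up 39.6% of the calls, and rises numbered 92 where a gene had to average 5 FPKM. Removal of 1 library left 553 to 624 calls (109 to 127 rises, 426 to 515 falls). For the difference from the control step it left 65 to 106 calls, 33 to 67 higher and 29 to 53 lower, and for the difference from the NAA step 3926 to 4277. Under that filter the lower differences from NAA numbered 1125. Column numbers are not tied to plots, so that pairing of the stages by plot could not be settled. Deviations of libraries with the same number correlated at 0.23, 0.22 and -0.14, and those with different numbers at -0.37 to 0.26. With the replicate block 620 genes were called (130 rises, 490 falls). In the 6 libraries alone with that block, 502 of the 643 calls were kept (92 rises and 410 falls). Of 98 named genes called, 48 lost the call in none of the 15 alternatives. A gene left untested by an alternative was not counted as lost. Under the filter of a mean of at least 5 FPKM, 120 of the 146 named genes were tested. The table holds FPKM and no read counts per gene, so that no counting error was given for low values.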

Other observations

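Some groups noticed while reading the calls, and drawn up after their values were seen, belong to no list above. Of all genes, 0.807% rose and 2.85% fell in ABA berries. Of 8 cysteine proteinase inhibitor genes 3 fell in ABA berries, led by VIT_218s0041g00370 with 17.8, 30.2 and 25.2 FPKM at E-L 36, against 90.7, 106 and 122 FPKM at E-L 35 (log2 change -2.10). Of 8 purine permease genes, for transporters of purine-type compounds, 3 fell, and of 4 nucleoredoxin genes, for redox proteins, 2 fell. Of 60 G-type lectin receptor kinase genes 5 rose and none fell in ABA berries. In control berries none rose and 2 fell, where 0.79% of all genes rose and 3.87% fell. Only 1 of the 60 had a step that differed by the rule (0.676% of all genes did), so that a difference between treatments was not shown for the group. The chloroplast chaperonin gene VIT_206s0061g00270, which folds RuBisCO, had 25.3, 24.6 and 24 FPKM at E-L 36, against 61.7, 55.4 and 57.6 FPKM at E-L 35 (log2 change -1.21) in ABA berries and a log2 change of -0.28 in control berries.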
